A study of Homo sapiens with 9 samples.

Results

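The aldo-keto reductases are a family of enzymes that reduce aldehydes and ketones to alcohols with NADPH, and their expression was examined in Huh7, a human hepatocarcinoma cell line, after silencing of enzymes of ceramide synthesis. The family was chosen by a list of 10 genes (AKR1A1, AKR1B1, AKR1B10, AKR1C1, AKR1C2, AKR1C3, AKR1C4, AKR1D1, AKR7A2 and AKR7A3), and the choice was made from results in which AKR1B10 was low after one silencing and high after the other. The values of AKR1B10 are therefore given as a description, with no test. In the platform's annotation 16 of 54613 probe sets named exactly 1 listed gene, which covered 8 of the 10 genes, and 1 further probe set named both AKR1C2 and AKR1C1. AKR1A1 and AKR1B1 were not analysed here.

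The 9 arrays fell into 3 groups of 3: cells given siRNA against DEGS1, cells given siRNA against the serine palmitoyltransferase subunits SPTLC1, SPTLC2 and SPTLC3 (SPTLC123 in the labels), and cells given scramble siRNA as the control. All groups shared the 20 nM siRNA dose, the lipid reagent, and a final period of 24 h in low-serum medium, recorded as conditioned medium. The labels date the samples to 72 h after transfection, although the protocol adds that medium at 72 h. They call the arrays biological replicates without saying whether these were separate cultures, so the p-values measure the spread between these samples. With 1 scramble control, an effect of an siRNA's own sequence and an effect of losing its target cannot be told apart. Since whole cultures were measured, fewer expressing cells and less RNA per cell cannot be told apart either.

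In liver, AKR1B10 reduces retinal and lipid aldehydes and is known for its high expression in hepatocellular carcinoma. The AKR1C enzymes act as hydroxysteroid dehydrogenases: AKR1C1 inactivates progesterone, AKR1C2 inactivates dihydrotestosterone, AKR1C3 makes testosterone and prostaglandin F, and AKR1C4 is the form largely restricted to liver. AKR1D1 reduces the steroid ring double bond on the way to bile acids. AKR7A2 and AKR7A3 reduce succinic semialdehyde and the dialdehyde of aflatoxin. Several AKR1C genes and AKR1B10 are known targets of the oxidant sensor NRF2.

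AKR1C1 and AKR1C2 are closely related genes, and their promoters are shown because the bright probe sets of both read low in the DEGS1 arrays. The windows below are from RefSeq on GRCh38.p14, run from 250 bases before to 50 bases after the annotated start, and read 5′ to 3′ on the gene's strand. Capitals mark a CCAAT box, which lies on the opposite strand and so reads ATTGG here. They lie at chr10:4963165-4963464 on the plus strand for AKR1C1, at chr10:5003808-5004107 on the minus strand for AKR1C2, and at chr10:5048531-5048830 on the plus strand for the first of 2 AKR1C3 windows.
AKR1C1: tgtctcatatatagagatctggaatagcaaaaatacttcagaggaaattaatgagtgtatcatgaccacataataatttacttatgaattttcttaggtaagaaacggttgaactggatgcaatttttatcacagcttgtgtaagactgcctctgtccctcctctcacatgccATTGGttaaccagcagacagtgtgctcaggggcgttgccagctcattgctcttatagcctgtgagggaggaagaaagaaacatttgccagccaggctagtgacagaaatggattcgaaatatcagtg
AKR1C2: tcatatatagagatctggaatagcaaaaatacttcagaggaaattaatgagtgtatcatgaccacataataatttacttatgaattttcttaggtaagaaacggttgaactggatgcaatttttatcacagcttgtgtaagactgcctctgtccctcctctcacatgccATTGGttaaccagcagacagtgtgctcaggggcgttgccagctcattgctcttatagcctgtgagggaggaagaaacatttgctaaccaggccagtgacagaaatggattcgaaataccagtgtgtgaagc
AKR1C3: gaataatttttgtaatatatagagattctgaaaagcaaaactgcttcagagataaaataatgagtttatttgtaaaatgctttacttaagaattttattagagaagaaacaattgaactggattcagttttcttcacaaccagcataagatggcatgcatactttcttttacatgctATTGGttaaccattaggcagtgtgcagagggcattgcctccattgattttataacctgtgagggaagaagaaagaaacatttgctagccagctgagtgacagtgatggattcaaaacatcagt

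The AKR1C1 and AKR1C2 windows were the same in 93.5% of aligned positions and shared an unbroken run of 245 bases. Against AKR1C1, the AKR1C3 window printed above was the same in 75.2% of positions, with a longest shared run of 18 bases, and AKR1C4 in 65.6%. The CCAAT box (CCAAT or ATTGG) was found once in each of the AKR1C1, AKR1C2 and AKR1C3 windows and not in that of AKR1C4, and 34.6% of the 35116 RefSeq windows of this length hold it. The core of the antioxidant response element, TGACNNNGC or its reverse GCNNNGTCA, was in none of the AKR1C windows, while 13.3% of all windows hold it. It was found 3 times in AKR7A2, whose 2 windows share a run of 298 bases and hold the same 3 sites. In RefSeq gene order AKR1C1, AKR1C2 and AKR1C3 follow each other, and AKR1B10 stands between AKR1B1 and AKR1B15.

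Values are log2 of the deposited intensity. Their median over all probe sets was 4.86. Values below it may lie near the array's background, where a difference can be compressed, but neither the background nor such compression was tested. A probe set was called at an adjusted p under 0.05 in limma, with Benjamini-Hochberg adjustment over all 54613 probe sets. Both knockdowns showed in the labelled groups. The DEGS1 transcript averaged 5.00 ± 0.19 in DEGS1 siRNA, against 8.73 ± 0.13 in scramble (SD, n = 3 each). SPTLC1 averaged 8.67 in SPTLC123 siRNA, against 10.94 in scramble, and SPTLC2 changed by -1.05 ± 0.11 (SE), while SPTLC3 was not analysed here. The actin and GAPDH control sets set DEGS1 replicates 2 and 3 and SPTLC123 replicate 3 apart by a weak 5′ signal: their actin 3′ minus 5′ difference was 1.15 to 1.31, against 0.40 to 0.56 in the other 6 arrays, and these 3 are called the weak-5′ arrays. All 7 measured hepatocyte and hepatoma markers (albumin, alpha-fetoprotein and others) lay far above the median. Of 7 markers of other liver cell types, the leukocyte marker PTPRC and the macrophage marker CD163 lay below it. The other 5, for endothelium, stellate cells and fibroblasts, and bile duct, had means above the median. None of the 7 was called in any comparison.

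AKR1B10, the member that led to this choice, was the most spread of the family. Its probe set 206561_s_at read 4.91, 4.10 and 4.71 in the DEGS1 arrays, 8.49, 8.31 and 8.26 in the SPTLC123 arrays, and 6.70, 6.40 and 7.46 in the scramble arrays. No other probe set named AKR1B10, and whether related transcripts bind this set was not tested. The groups did not overlap: DEGS1 siRNA was lowest, scramble stood between, and SPTLC123 siRNA was highest. The DEGS1 values were close to the array median, where differences can be compressed. Relative to scramble the difference was -2.28 ± 0.28 (SE of the fit) with DEGS1 siRNA, which is 20.6% of the scramble signal, and 1.50 ± 0.28 with SPTLC123 siRNA, which is 283%. Both differences use the same scramble arrays, whose own SD of 0.55 was the widest of the 3 groups. Set directly against each other, DEGS1 siRNA differed from SPTLC123 siRNA by -3.78 ± 0.28, a level of 7.27%. With the weak-5′ arrays left out, which leaves replicate 1 as the only DEGS1 array, the differences from scramble were -1.94 with DEGS1 siRNA and 1.55 with SPTLC123 siRNA.

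**Figure D1:**
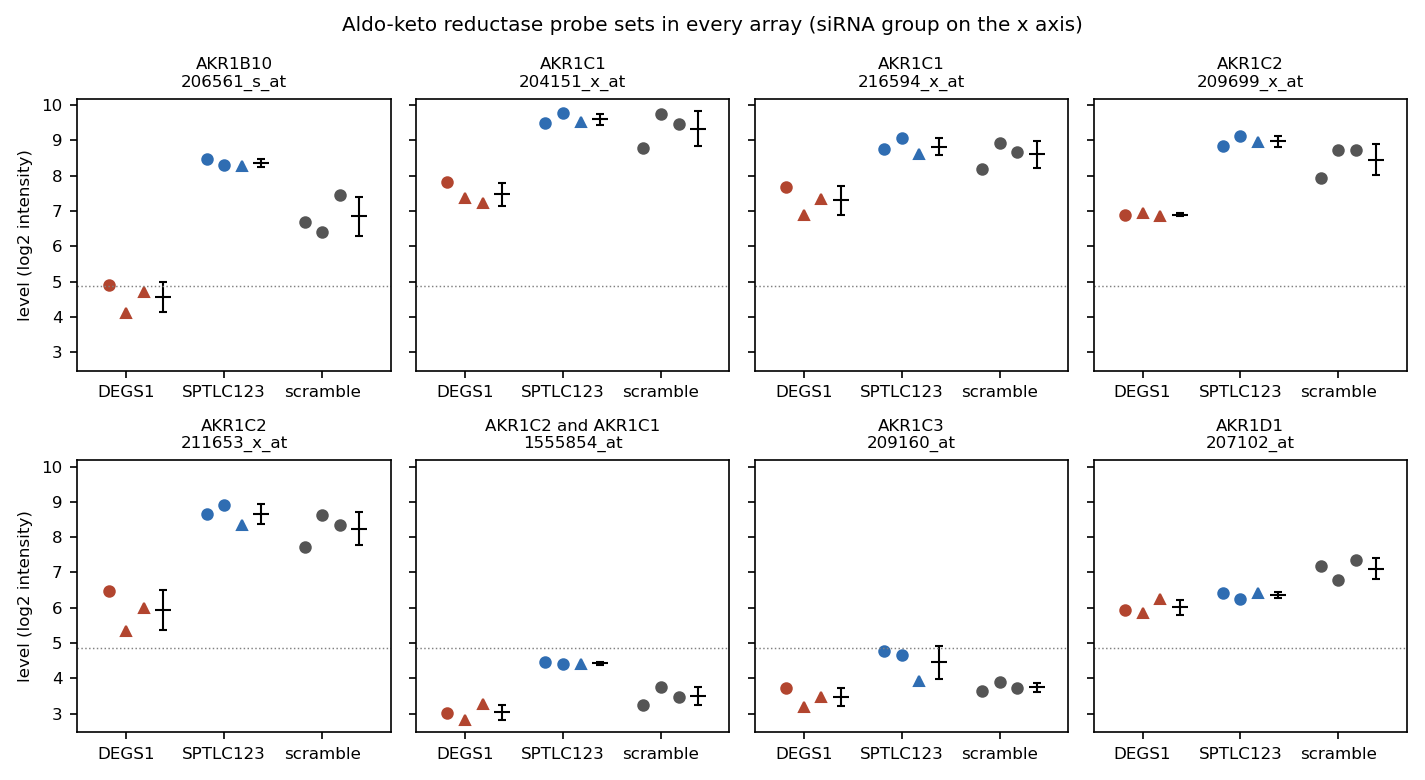
Log2 intensity of 8 probe sets in every array, for the DEGS1, SPTLC123 and scramble siRNA groups on the x axis. Triangles mark the 3 weak-5′ arrays, black bars the mean ± SD (n = 3), and the dotted line the median of all probe sets (4.86). AKR1B10 reads highest in SPTLC123 arrays and lowest in DEGS1 arrays, the bright AKR1C1 and AKR1C2 sets are low in DEGS1 arrays, and AKR1D1 is low in both silenced groups. In the set named for AKR1C2 and AKR1C1 together, DEGS1 and scramble arrays overlap.

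Of the 15 probe sets of the other 7 genes, DEGS1 siRNA lowered 5 against scramble and raised none, while 3.42% of all probe sets were called in this comparison, 1.82% higher and 1.60% lower. The 5 were both bright AKR1C1 sets, both bright AKR1C2 sets and AKR1D1. SPTLC123 siRNA lowered 1, AKR1D1, and raised none, beside 4.52% called of all probe sets, 2.63% higher and 1.88% lower. DEGS1 against SPTLC123 siRNA gave 5 lower and none higher, beside 3.69% of all, 1.58% higher and 2.11% lower, namely the same AKR1C1 and AKR1C2 sets and AKR1C3. The median change over the 15 was -0.28, 0.00 and -0.12 in these comparisons, against 0.00, -0.02 and 0.02 over all probe sets. With arrays centred on their medians, 69.4% of all calls with SPTLC123 siRNA were higher, against 58.3% as deposited, and 31.7% against 42.7% for DEGS1 against SPTLC123. Since AKR1B10 in these same comparisons led to the list, nothing is read from these shares.

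Both bright probe sets annotated to AKR1C1, the progesterone-inactivating enzyme, fell with DEGS1 siRNA, but their suffix, x_at, is the one Affymetrix gives to probes that can bind other sequences, so AKR1C1 and AKR1C2 cannot be told apart in them. The set 204151_x_at read 7.83, 7.36 and 7.22 in DEGS1 arrays, 9.48, 9.79 and 9.53 in SPTLC123 arrays, and 8.78, 9.74 and 9.48 in scramble arrays. Every DEGS1 array lay below every other array, whereas SPTLC123 and scramble overlapped. The difference from scramble was -1.86 ± 0.24 with DEGS1 siRNA (27.5% of the signal; limma adjusted p = 0.00601) and 0.27 ± 0.24 with SPTLC123 siRNA (adjusted p = 0.692; 95% interval -0.28 to 0.82). The set 216594_x_at averaged 7.30 ± 0.41 in DEGS1 arrays, 8.82 ± 0.23 in SPTLC123 arrays and 8.60 ± 0.38 in scramble arrays (SD, n = 3 each). Its change with DEGS1 siRNA was -1.30 ± 0.24 (limma adjusted p = 0.0237). The 3 other AKR1C1 sets, 217626_at, 1555856_s_at and 1555855_at, read between 3.61 and 5.21 in all 9 arrays, near or below the array median, and were not called in any comparison. Their differences with DEGS1 siRNA were -0.10, -0.01 and 0.14, so of the 5 AKR1C1 sets only the 2 x_at sets fell.

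The bright sets annotated to AKR1C2, which inactivates dihydrotestosterone, carry the same suffix and also fell with DEGS1 siRNA, which does not show separate falls of both genes. The set 209699_x_at read 6.88, 6.94 and 6.86 in DEGS1 arrays, 8.84, 9.13 and 8.94 in SPTLC123 arrays, and 7.94, 8.72 and 8.71 in scramble arrays. The DEGS1 arrays were tightly grouped and lowest, and each SPTLC123 array stood above each scramble array, of which replicate 1 was the lowest. DEGS1 siRNA changed it by -1.56 ± 0.19 (33.8% of the scramble signal; limma adjusted p = 0.00465), and SPTLC123 siRNA differed by 0.51 ± 0.19 without passing the threshold (adjusted p = 0.215; 95% interval 0.08 to 0.95 before adjustment). The set 211653_x_at read 6.48, 5.33 and 5.98 in DEGS1 arrays, 8.67, 8.92 and 8.36 in SPTLC123 arrays, and 7.73, 8.64 and 8.34 in scramble arrays. Its change of -2.31 ± 0.31 with DEGS1 siRNA left 20.2% of the scramble signal (limma adjusted p = 0.00669). The third AKR1C2 set, 244266_at, has no such suffix, read between 3.02 and 3.28 in all arrays, below the array median, and differed by -0.01 with DEGS1 siRNA.

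Set against SPTLC123 siRNA, the bright AKR1C1 sets stood at -2.13 ± 0.24 and -1.52 ± 0.24 with DEGS1 siRNA, and the bright AKR1C2 sets at -2.08 ± 0.19 and -2.72 ± 0.31 (limma adjusted p = 0.00228, 0.0112, 0.000896 and 0.00226). With the weak-5′ arrays left out, DEGS1 replicate 1 is the only DEGS1 array, assumed to vary like the other groups, and the changes with DEGS1 siRNA were -1.51, -0.91, -1.57 and -1.76, in the order given above, and none was called (limma adjusted p from 0.0734 to 0.277). In each of these 4 sets that array lay below all scramble arrays. With the actin 3′/5′ difference as a covariate all 4 were called. Of the 4, the AKR1C1 set 216594_x_at was the least stable, losing its call in 8 of 19 alternatives.

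The probe set named for both paralogs, 1555854_at, lacks that suffix and was highest in the SPTLC123 arrays. It read 3.02, 2.82 and 3.26 in DEGS1 arrays, 4.46, 4.41 and 4.39 in SPTLC123 arrays, and 3.25, 3.75 and 3.46 in scramble arrays. The SPTLC123 arrays stood above all others, and DEGS1 and scramble overlapped. It rose by 0.93 ± 0.15 with SPTLC123 siRNA (limma adjusted p = 0.00790), while the difference of -0.46 ± 0.15 with DEGS1 siRNA was not called (adjusted p = 0.132). DEGS1 against SPTLC123 siRNA gave -1.39 ± 0.15 (limma adjusted p = 0.00158), lower as in the bright sets. Since all 9 values were under the array median, the fold may be compressed.

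AKR1C3, which makes testosterone and prostaglandin F, was dim and differed between the silenced groups. Its set 209160_at read 3.73, 3.20 and 3.48 in DEGS1 arrays, 4.77, 4.65 and 3.92 in SPTLC123 arrays, and 3.64, 3.89 and 3.73 in scramble arrays. SPTLC123 replicates 1 and 2 stood well above the rest, and replicate 3, a weak-5′ array, lay next to scramble. DEGS1 against SPTLC123 siRNA gave -0.98 ± 0.22 (limma adjusted p = 0.0446), and neither group was called against scramble (-0.28 ± 0.22 with DEGS1 siRNA and 0.70 ± 0.22 with SPTLC123 siRNA; adjusted p = 0.521 and 0.130). The difference of SPTLC123 from scramble was called in 4 of 19 alternatives, among them leaving out SPTLC123 replicate 3 (0.96, limma adjusted p = 0.0192). The call between the silenced groups was lost in 10 of 19 alternatives, where the adjusted p reached 0.171: on leaving out SPTLC123 replicate 1 or 2, DEGS1 replicate 2 or 3 or any scramble array, with the replicate block, with only the 2 groups compared, and at 0.01. AKR1C4, the liver form, read between 3.15 and 3.41 in all arrays, and none of its differences was called.

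AKR1D1, the reductase of bile acid synthesis, fell in both silenced groups. Its set 207102_at read 5.95, 5.84 and 6.26 in DEGS1 arrays, 6.42, 6.25 and 6.41 in SPTLC123 arrays, and 7.18, 6.77 and 7.35 in scramble arrays. Neither silenced group overlapped with scramble, and they overlapped with each other. The change was -1.09 ± 0.16 with DEGS1 siRNA (47.1% of the signal; limma adjusted p = 0.00939) and -0.74 ± 0.16 with SPTLC123 siRNA (59.8%; adjusted p = 0.0339). DEGS1 and SPTLC123 siRNA differed by -0.35 ± 0.16, which was not called (adjusted p = 0.303; 95% interval -0.71 to 0.02). With the weak-5′ arrays left out the changes were -1.15 (adjusted p = 0.0943) and -0.76 (adjusted p = 0.0517). The second call was also lost on leaving out any SPTLC123 array, or scramble replicate 1 or 3 (adjusted p from 0.0839 to 0.114). Other liver genes moved in SPTLC123 arrays too, where 3 of 7 hepatocyte markers fell (TTR by 1.03, APOA1 by 0.46 and TF by 0.37). Of all genes, 2.95% were called lower in that comparison. None of the 7 was called with DEGS1 siRNA, beside 5.16% of all genes. The part of these markers in the AKR1D1 result was not tested.

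AKR7A2, the succinic semialdehyde reductase, and AKR7A3, the aflatoxin aldehyde reductase, were above the array median, and none of their differences was called in the fit to all arrays. The AKR7A2 set 202139_at read 9.21, 8.52 and 8.66 in DEGS1 arrays, 8.92, 9.06 and 8.48 in SPTLC123 arrays, and 9.15, 9.44 and 9.28 in scramble arrays. The 3 lowest values were those of the 3 weak-5′ arrays. Its difference was -0.49 ± 0.20 with DEGS1 siRNA and -0.47 ± 0.20 with SPTLC123 siRNA (limma adjusted p = 0.228 and 0.297). The difference with DEGS1 siRNA was -0.14 with the actin covariate and -0.08 with the weak-5′ arrays left out, but it was called with array weights (-0.61, adjusted p = 0.0232) and without DEGS1 replicate 1 (-0.70, adjusted p = 0.0254). Both AKR7A3 sets carry the x_at suffix too, so other sequences may add to their signal. The AKR7A3 set 206469_x_at averaged 6.69 ± 0.10 in DEGS1 arrays, 6.58 ± 0.09 in SPTLC123 arrays and 6.97 ± 0.13 in scramble arrays (SD, n = 3 each). Each silenced array lay below each scramble array, but neither difference was called (-0.28 ± 0.10 and -0.39 ± 0.10; limma adjusted p = 0.170 and 0.0630). The first was called with array weights (adjusted p = 0.0464), and the second in 3 of 19 alternatives, namely with dim sets left out, array weights or the actin covariate (adjusted p from 0.0468 to 0.0495). The other set of each gene was not called in the fit to all arrays either.

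**Figure D2:**
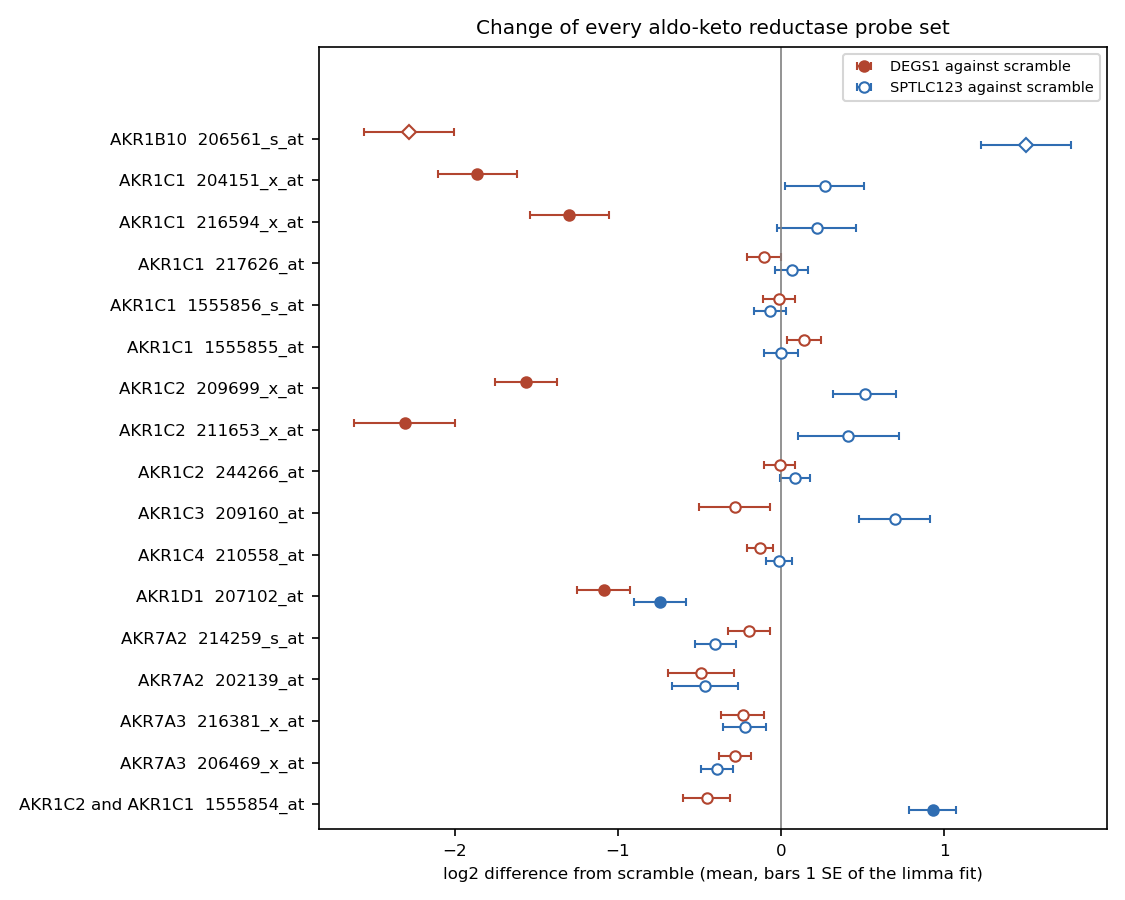
Log2 difference from scramble of all 17 probe sets, with DEGS1 siRNA in red and SPTLC123 siRNA in blue; bars are 1 SE of the limma fit. Filled points were called at an adjusted p under 0.05, open circles were not, and AKR1B10 (diamonds) was not tested. The bright AKR1C1 and AKR1C2 sets lie at -1.30 to -2.31 with DEGS1 siRNA and 0.22 to 0.51 with SPTLC123 siRNA, while AKR1D1 is negative with both.

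Related genes outside the family, with 1 probe set per gene, are given from lists chosen with earlier results of these data known. Of 23 NRF2 regulators and targets, 2 fell and none rose with DEGS1 siRNA, and 2 rose and 1 fell with SPTLC123 siRNA, among 19775 genes of which 5.16% were called with DEGS1 siRNA (2.63% higher, 2.53% lower) and 6.42% with SPTLC123 siRNA (3.47% higher, 2.95% lower). For DEGS1 against SPTLC123, 1 was higher and 5 lower, beside 5.37% of all genes (2.38% higher, 2.99% lower). The quinone reductase NQO1 changed by -0.65 ± 0.14 and the cystine transporter SLC7A11 by -1.25 ± 0.26 with DEGS1 siRNA (limma adjusted p = 0.0387 and 0.0357). Each gene had 2 other probe sets, all lower there too. None of those of NQO1 and 1 of those of SLC7A11 was called. One of the other NQO1 sets was called with SPTLC123 siRNA, although the set used here was not. With SPTLC123 siRNA, UGDH, which makes UDP-glucuronate, rose by 0.69 ± 0.09, the NADPH-forming malic enzyme ME1 by 0.58 ± 0.13, and the epoxide hydrolase EPHX1 changed by -0.42 ± 0.08 (limma adjusted p = 0.00410, 0.0346 and 0.0238). Of 2 other ME1 sets, only 1 had the same sign in this comparison, and it was called. The list's median change was -0.23 with DEGS1 siRNA and 0.06 with SPTLC123 siRNA, against -0.01 and -0.03 over all genes. NQO1 lost its call in 13 of 20 alternatives, among them the actin covariate (-0.43, adjusted p = 0.0587), median centring, the replicate block and the weak-5′ arrays left out (-0.37, adjusted p = 0.404). SLC7A11 lost its call in 9 of 20, among them the weak-5′ arrays left out (-1.27, adjusted p = 0.243), and was called with the actin covariate. With SPTLC123 siRNA, UGDH was called in all 20 alternatives, while ME1 lost its call in 10 and EPHX1 in 8 (adjusted p up to 0.118 and 0.0854).

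Of 22 other enzymes of aldehydes and carbonyls, none was called with DEGS1 siRNA, and 1 rose and 1 fell with SPTLC123 siRNA. Over all genes, 2.63% were called higher and 2.53% lower with DEGS1 siRNA, and 3.47% and 2.95% with SPTLC123 siRNA. The alcohol dehydrogenase ADH6 rose by 0.44 ± 0.10, and ALDH5A1, which oxidises succinic semialdehyde, changed by -0.46 ± 0.09 (limma adjusted p = 0.0408 and 0.0259). Each had 1 other probe set, which had the same sign and was not called. ADH6 lost its call in 13 of 20 alternatives and ALDH5A1 in 8 (adjusted p up to 0.136 and 0.0998). Of 25 steroid and bile acid enzymes, 2 fell with DEGS1 siRNA and 3 with SPTLC123 siRNA, and none rose. Beside those shares of all genes the calls are few, and no direction is read from them. HSD17B2, which oxidises oestradiol and testosterone, averaged 7.71 in DEGS1 arrays, 7.79 in SPTLC123 arrays and 9.35 in scramble arrays. Like AKR1D1 it was low in both silenced groups, by -1.64 ± 0.15 and -1.56 ± 0.15 (limma adjusted p = 0.00109 and 0.000745). ACOX2, which shortens the bile acid side chain, changed by -0.65 ± 0.12 with DEGS1 siRNA and -0.52 ± 0.12 with SPTLC123 siRNA (limma adjusted p = 0.0250 and 0.0468), and HSD17B8 by -1.02 ± 0.23 with SPTLC123 siRNA (adjusted p = 0.0417). HSD17B2 was called in all 20 alternatives in both comparisons. ACOX2 lost its call in 8 of 20 with DEGS1 siRNA, among them the actin covariate (adjusted p = 0.0570) and the weak-5′ arrays left out (adjusted p = 0.226). With SPTLC123 siRNA the call was lost in 13 of 20 for ACOX2 and in 12 of 20 for HSD17B8 (adjusted p up to 0.156 and 0.122). Among other genes of the superfamily, AKR1E2, next to AKR1C1 in gene order, and the potassium channel subunits KCNAB1, KCNAB2 and KCNAB3 were not called in any comparison.

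**Figure D3:**
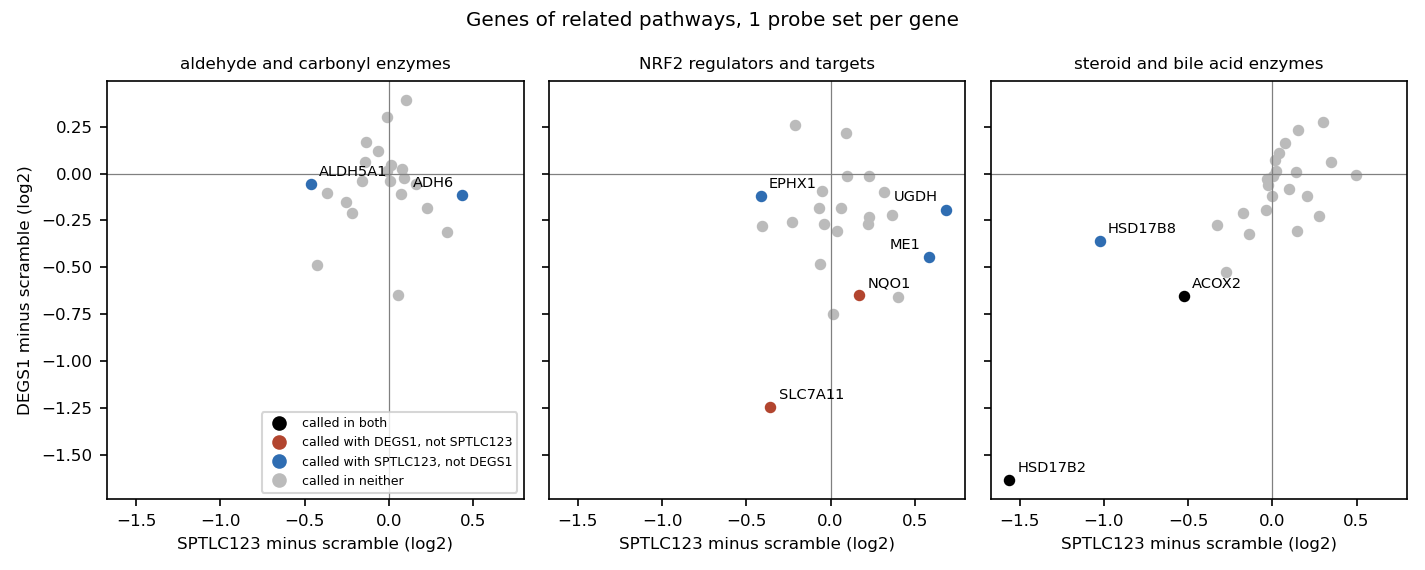
Log2 difference from scramble with SPTLC123 siRNA (x axis) and DEGS1 siRNA (y axis) for the genes of 3 lists, 1 probe set per gene. Colours show in which comparison a gene was called; both axes share the scramble arrays. HSD17B2 lies lowest on both axes, and SLC7A11 and NQO1 are called on the DEGS1 axis.

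The genes nearest to AKR1B10 in their array profile were found by the root mean square difference over the 9 arrays, each profile centred on its own mean. The search covered 12640 genes above the median level. The listed family genes were left out of it, so their own likeness to AKR1B10 or AKR1C1 is not ranked here. The nearest genes searched were the deubiquitinase USP46 (0.64 on the log2 scale), PHLDA2 (0.69), DPY19L1 (0.76), UGT2B4, which glucuronidates bile acids (0.78), and DEGS1 itself (0.82). USP46 averaged 7.05 in DEGS1 arrays, 9.60 in SPTLC123 arrays and 9.27 in scramble arrays, so its SPTLC123 and scramble arrays stood closer together than those of AKR1B10. Outside the listed family genes, those nearest to the bright AKR1C1 set 204151_x_at were DPY19L1 and UGT2B4 (0.27 each) and the neuropeptide gene NPW (0.30). The cholesterol ester hydrolase gene NCEH1 (0.30) and ACMSD of tryptophan breakdown (0.33) came next. This difference is not scaled to the range of a profile. That range was 2.56 for this AKR1C1 set, while AKR1B10 ran from 4.10 to 8.49, so the distances of AKR1C1 and AKR1B10 are not compared. UGT2B4 averaged 3.89 ± 0.38 in DEGS1 arrays, 6.26 ± 0.16 in SPTLC123 arrays and 5.66 ± 0.58 in scramble arrays (SD, n = 3 each). These likenesses describe the 9 arrays and have no test.

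**Figure D4:**
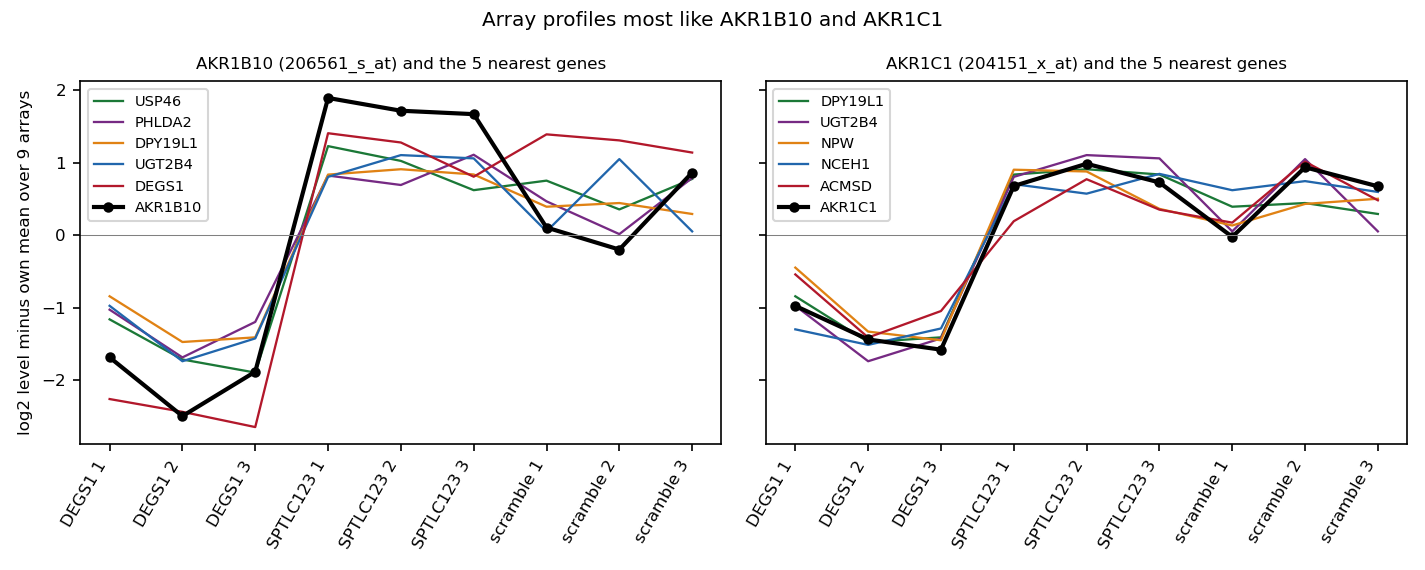
Log2 level minus each gene's own mean over the 9 arrays, for AKR1B10 (left) and AKR1C1 (right) in black. The 5 genes nearest to each, with the listed family genes left out, are in colour, and the x axis gives group and replicate. All lines are lowest in the DEGS1 arrays, and AKR1B10 stands apart from its companions by its distance between SPTLC123 and scramble arrays.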

How the data were processed

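RNA from 9 Huh7 samples was measured on 1-colour Affymetrix arrays. The deposited table holds linear, already normalized intensity. RMA, GCRMA 2.12.1 and limma 2.14.7 are named in the submitters' processing notes; which of RMA and GCRMA made the values is not given in the sources used here, and the methods treat dim probe sets differently. Of 54675 probe sets, 62 controls were left out. Values (lowest 4.88) were log2-transformed with no pseudocount, and array medians then ran from 4.80 to 4.90.

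Each probe set was fitted with limma 3.58.1 (lmFit and eBayes, R 4.3.3), using a mean for each group over the 9 arrays and leaving 6 residual degrees of freedom. Tests were two-sided, and the fit was tested on simulated data. Arrays give no read depth, so their number limits the precision. For the lists, each gene was represented by its 1-gene probe set with the highest mean. Named were all members and up to 5 genes per list by smallest adjusted p in either comparison with scramble. Also named were the 5 non-member genes nearest to AKR1B10 and to AKR1C1. The members and lists were chosen with earlier results of these data known. Samples sharing a replicate number did not consistently deviate together: the correlation was 0.57 and 0.70 for DEGS1 and SPTLC123 replicates 1 and 3, and from -0.49 to 0.29 for the other pairs, so the block was kept as an alternative. The alternatives were 1 probe set per gene, leaving out dim probe sets, quantile normalization, median centring, a variance trend, the 2 groups compared, array weights, a threshold of 0.01, the replicate block, the actin covariate, and leaving out arrays.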

Additional observations from a re-analysis of the deposited data

How the results depend on the processing

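The sign of each called difference held under every alternative listed above, for members and named list genes. Of 30 such differences, 10 stayed called when the 3 weak-5′ arrays were left out (median 94.5% of the change left), 28 with the actin covariate and 21 with the replicate block. AKR1B10 ranged from -2.51 to -1.94 with DEGS1 siRNA and from 1.28 to 1.81 with SPTLC123 siRNA.

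Of the 15 member probe sets, 5 were called for DEGS1 against scramble; 3 were with 1 probe set per gene and 0 without the 3 arrays, and 4 to 6 on leaving out single arrays. For SPTLC123 against scramble, where 1 was called, the count was 2 with dim sets left out, 3 with array weights, 3 with the actin covariate and 0 at 0.01, and 0 to 1 on leaving out single arrays. For DEGS1 against SPTLC123, where 5 were called, it was 3 with 1 probe set per gene, 3 at 0.01 and 3 without the 3 arrays, and 3 to 5 on leaving out single arrays.

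Over all probe sets, DEGS1 against scramble gave 1869 calls, 859 on the 2 groups compared, 10150 with array weights, 450 at 0.01 and 193 without the 3 arrays, and 491 to 9061 on leaving out single arrays, the highest without DEGS1 replicate 1. SPTLC123 against scramble gave 2466, 907 at 0.01 and 4591 with the actin covariate, and 1166 to 3100 on leaving out single arrays. DEGS1 against SPTLC123 gave 2017, 993 on the 2 groups compared, 9884 with array weights, 600 at 0.01, 3509 with the actin covariate and 341 without the 3 arrays, and 722 to 7151 on leaving out single arrays. The causes were not tested. The replicate block left 4, 1 and 4 member calls and 1512, 2194 and 1672 calls in all.

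Sign changes occurred in differences that were not called, most of them near 0; the exceptions were AKR1C3 for DEGS1 against scramble (-0.28) and AKR1C1 204151_x_at for SPTLC123 against scramble (0.27). For DEGS1 against scramble, AKR1C3 stood at 0.058 and AKR1C2 244266_at at 0.014 with the actin covariate, and AKR1C1 217626_at at 0.017 without the 3 arrays. For SPTLC123 against scramble, AKR1C1 1555855_at stood at -0.017 with array weights and -0.018 without the 3 arrays. AKR1C4 stood at 0.0086 with quantile normalization, 0.030 with median centring, 0.0014 with the covariate and 0.0031 without the 3 arrays. For DEGS1 against SPTLC123, AKR1C1 1555856_s_at stood at -0.0017 and -0.0032 with quantile normalization and median centring. AKR7A2 202139_at stood at 0.045 with quantile normalization, 0.18 with the covariate and 0.21 without the 3 arrays, and AKR7A3 216381_x_at at 0.0024 and 0.032 with quantile normalization and the covariate. On leaving out single arrays, AKR1C1 1555856_s_at ran from -0.059 to 0.034 and AKR1C2 244266_at from -0.076 to 0.056 for DEGS1 against scramble. For SPTLC123 against scramble, AKR1C1 1555855_at ran from -0.049 to 0.048, 1555856_s_at from -0.12 to 0.017, 204151_x_at from -0.0084 to 0.47 and AKR1C4 from -0.043 to 0.043. For DEGS1 against SPTLC123, AKR1C1 1555856_s_at ran from -0.029 to 0.11, AKR7A2 202139_at from -0.23 to 0.11 and AKR7A3 216381_x_at from -0.094 to 0.13.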
